A study of Homo sapiens with 10 samples.

Results

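The major histocompatibility region on chromosome 6 was described through the accessible sites that one deposited peak list places there. Its members are the peaks on chromosome 6 that start between positions 28500000 and 33500000 of build hg38, 446 of the 161934 peaks in the list. They were divided by position into the class I part (up to 31500000, 268 peaks), the class III part (up to 32400000, 102 peaks) and the class II part (the remainder, 76 peaks). All HLA genes named here lie inside these bounds in the RefSeq gene table of the same build, the class I HLA genes in the class I part and the class II HLA genes in the class II part. The peaks come from ATAC-seq, an assay in which the Tn5 transposase cuts open chromatin, in MDA-MB-231 cells, an established line from a human breast cancer of the triple-negative type. Libraries were labelled as control (5) or ARID1A knockout (5), and no further treatment is given for either group. ARID1A is a subunit of the SWI/SNF chromatin remodelling complex. The labels do not say whether the knockout is 1 clone, or whether the libraries came from separate cultures.

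The list has no column for any of the 10 libraries and no peak height, so control and knockout were not compared and the depth behind each peak is unknown. Everything below describes the shared list, with peaks and genes counted, and carries no replicate error. Expression was not measured, so the labelled cell type was not checked against its markers. HLA genes are highly polymorphic, C4A and C4B are near-identical copies, and how reads that align to several places were handled is not given in the sources used here. A gene without a peak is therefore a gene for which this list holds none. The part of alignment in such cases was not tested, and copy number was not measured.

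Class I HLA molecules carry peptides from inside the cell to its surface and show them to CD8+ T cells. The peptides are cut by the proteasome, for which PSMB8 and PSMB9 encode interferon-inducible subunits, pumped into the endoplasmic reticulum by the transporter of TAP1 and TAP2, and loaded with the help of tapasin, the product of TAPBP. Class II HLA molecules show peptides from endosomes to CD4+ T cells and are made mainly by professional antigen-presenting cells, while interferon gamma can induce them in other cells. NLRC5 activates class I genes and CIITA class II genes, both through factors bound to the X and Y boxes of the promoters. The class III part holds no HLA gene but genes of complement, tumour necrosis factor and its relatives, heat shock proteins and many housekeeping functions.

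Promoter sequences of class I genes are shown first, since closely related promoters differed in whether the list holds a peak there. Each line is the 200 bases before a RefSeq start (GRCh38.p14), 5′ to 3′ on the strand of the gene. Where a gene had several starts, the one with the highest coordinate was taken. Capitals mark 5 motifs searched on both strands: GGGATTCCC of the kB site, GAAANNGAA of the interferon-stimulated response element, TGACG of the X2 box, CCAAT of the Y box, and CTGATGATG of the class II X box. HLA-C (chr6:31272093-31272292, minus strand) and HLA-F (chr6:29723234-29723433, plus strand) lay wholly inside a peak. HLA-B (chr6:31357180-31357379, minus strand) and HLA-G (chr6:29827625-29827824, plus strand) had no base in one.
HLA-C: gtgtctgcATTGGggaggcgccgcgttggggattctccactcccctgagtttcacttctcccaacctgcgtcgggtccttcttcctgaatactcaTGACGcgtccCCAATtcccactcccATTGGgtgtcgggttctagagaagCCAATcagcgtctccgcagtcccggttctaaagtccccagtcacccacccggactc
HLA-B: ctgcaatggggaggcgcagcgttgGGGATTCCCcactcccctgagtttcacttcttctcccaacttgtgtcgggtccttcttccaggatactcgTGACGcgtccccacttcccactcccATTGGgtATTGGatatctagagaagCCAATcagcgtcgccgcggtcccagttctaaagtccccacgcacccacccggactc
HLA-F: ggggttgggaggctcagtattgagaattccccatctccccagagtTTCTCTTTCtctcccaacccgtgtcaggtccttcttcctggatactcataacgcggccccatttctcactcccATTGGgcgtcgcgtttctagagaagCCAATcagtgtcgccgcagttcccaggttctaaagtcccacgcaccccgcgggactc
HLA-G: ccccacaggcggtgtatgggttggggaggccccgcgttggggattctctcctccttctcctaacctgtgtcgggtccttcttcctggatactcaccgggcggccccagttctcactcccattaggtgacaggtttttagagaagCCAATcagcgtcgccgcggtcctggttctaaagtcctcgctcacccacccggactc
HLA-B held GGGATTCCC, TGACG and CCAAT, and HLA-C held TGACG and CCAAT only. HLA-F held GAAANNGAA and CCAAT. HLA-G held 1 CCAAT and none of the other motifs. The HLA-B stretch thus held more of these motifs than the HLA-G stretch, and neither had a peak. Only these exact letters were searched, and variants of each element were not. A stretch without GAAANNGAA, such as that of HLA-B or HLA-C, may therefore still hold an interferon-stimulated response element.

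The promoters of TAP1 (chr6:32853705-32853904, minus strand) and TAPBP (chr6:33314079-33314278, minus strand) are shown because each held GAAANNGAA in 2 overlapping copies. Both stretches lay wholly inside a peak.
TAP1: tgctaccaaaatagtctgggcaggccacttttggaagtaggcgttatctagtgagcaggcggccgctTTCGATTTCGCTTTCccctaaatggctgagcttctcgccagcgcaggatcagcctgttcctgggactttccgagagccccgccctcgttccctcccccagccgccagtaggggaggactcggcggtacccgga
TAPBP: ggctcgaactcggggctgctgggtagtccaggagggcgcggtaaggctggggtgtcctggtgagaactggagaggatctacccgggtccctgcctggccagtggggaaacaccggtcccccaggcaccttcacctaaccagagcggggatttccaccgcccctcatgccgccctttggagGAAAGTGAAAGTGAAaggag

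Class II promoters are shown for the X box core, which was found in 4 promoters of the region, those of HLA-DMA, HLA-DMB, HLA-DOB and HLA-DRB1. HLA-DMB (chr6:32941029-32941228, minus strand) lay wholly inside a peak and HLA-DOB (chr6:32817003-32817202, minus strand) with 99.5% of its bases. HLA-DRB1 (chr6:32589849-32590048, minus strand) had no base in one. HLA-DRA and HLA-E were not searched.
HLA-DMB: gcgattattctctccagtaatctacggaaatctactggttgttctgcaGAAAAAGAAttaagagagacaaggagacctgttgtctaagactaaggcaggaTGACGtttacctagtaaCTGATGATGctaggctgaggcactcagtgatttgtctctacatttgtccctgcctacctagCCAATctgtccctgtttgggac
HLA-DOB: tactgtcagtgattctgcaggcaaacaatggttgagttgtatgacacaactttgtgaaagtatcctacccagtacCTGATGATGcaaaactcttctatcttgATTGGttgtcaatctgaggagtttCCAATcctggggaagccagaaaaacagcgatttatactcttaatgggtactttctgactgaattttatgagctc
HLA-DRB1: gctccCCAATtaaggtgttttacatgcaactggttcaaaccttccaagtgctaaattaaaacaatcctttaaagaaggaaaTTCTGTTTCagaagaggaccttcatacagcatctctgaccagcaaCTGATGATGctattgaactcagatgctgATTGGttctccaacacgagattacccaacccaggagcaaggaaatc
All of these stretches also held CCAAT on either strand, as did 34.6% of all RefSeq promoters. Whether these letters relate to the presence of a peak was not tested.

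Over the RefSeq promoter table (250 bases before to 50 after each start), CTGATGATG occurred in 95 of 34789 promoters (0.273%) and in 4 of the 270 in the region. GGGATTCCC occurred in 134 promoters (0.385%), of which 6 lie in the region, that of HLA-B among them. GAAANNGAA was found in 31 of 270 promoters of the region (11.5%) and in 8.10% of all promoters. For CCAAT the shares were 40.7% and 34.6%, and for TGACG 22.6% and 24.5%. Of all promoters in the table, 54.7% overlapped a peak. Among those with a motif the share was 44.5% for GAAANNGAA, 28.4% for CTGATGATG, 53.5% for CCAAT, 60.4% for GGGATTCCC and 70.6% for TGACG. A match describes the letters only and is not evidence of binding, and a missing match is not evidence that the element is absent.

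The region was rich in peaks compared with its chromosome. It held 89.2 peaks per Mb over 5 Mb, against 55.4 on the rest of chromosome 6 and 54.8 over chromosomes 1 to 22 and X. Density was 89.3 per Mb in the class I part, 113 in the class III part and 69.1 in the class II part. Peaks covered 6.75% of the region, from 8.84% of the class III part down to 5.50% of the class II part, and 3.54% of the rest of the chromosome. The class III part thus stood highest and the class II part lowest by either measure, and both lay above the rest of chromosome 6.

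Density changed strongly along the region. In windows of 100 kb the median was 9 peaks in the class I part, 12 in the class III part and 8 in the class II part. The window starting at 31800000 in the class III part held the most, 18 peaks. Its genes include LSM2, an RNA-processing factor, the 3 HSP70 genes HSPA1L, HSPA1A and HSPA1B, the sialidase gene NEU1, SLC44A4, the histone methyltransferase gene EHMT2, C2 and ZBTB12. No peak was found in 3 of the 50 windows, those starting at 29200000 and 29300000 among olfactory receptor genes and at 32500000, which holds HLA-DRB5 and HLA-DRB1.

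**Figure D1:**
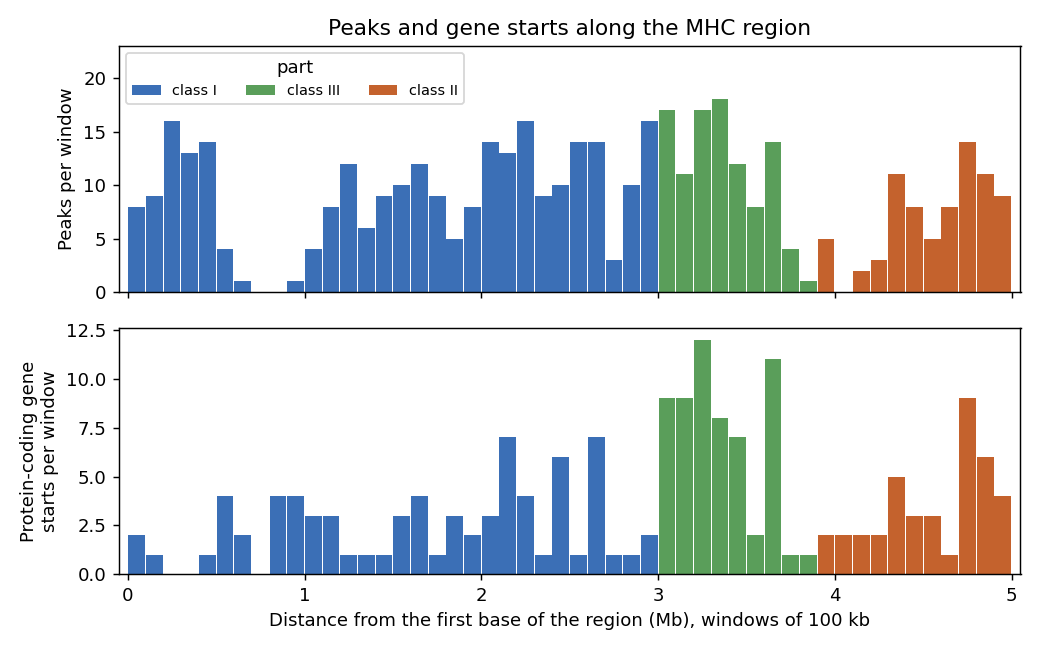
Peaks (top) and starts of protein-coding genes (bottom) in 50 windows of 100 kb, against distance in Mb from the first base of the region, with bars coloured by part. Peak counts reach 18 in the class III part and fall to 0 in 3 windows.

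The region is also dense in genes. It holds 172 protein-coding genes, 34.4 per Mb against 6.76 over chromosomes 1 to 22 and X, and so 2.59 peaks per gene against 8.10. Windows of 1 Mb elsewhere with at least 30 genes (85 windows) held a median of 112 peaks. The 5 windows of 1 Mb across the region held 66, 83, 119, 107 and 71 peaks, beside 18, 22, 33, 62 and 37 gene starts. The window from 31500000, with 62 genes, thus held fewer peaks than the window before it, with 33 genes.

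Most peaks of the region lay in promoters, defined by the list as within 3000 bases of a transcript start. Promoters held 282 of 446 peaks (63.2%, 95% Wilson interval 58.7 to 67.6, counting error over peaks only), against 22.3% (21.4 to 23.1) on the rest of chromosome 6. The share was 54.5% (48.5 to 60.3) in the class I part, 82.4% (73.8 to 88.5) in the class III part and 68.4% (57.3 to 77.8) in the class II part. Within the class I part it was 31.8% from 28500000 to 29499999, 59.0% from 29500000 to 30499999 and 63.9% from 30500000 to 31499999. The class I share was thus lowest from 28500000 to 29499999 and higher beyond, so it was not uniform over that part. The intervals of the class I and class III parts did not overlap, and that of the class II part overlapped both. Within 1000 bases of a start, the share was 38.1% (32.5 to 44.0) in the class I part, 65.7% (56.1 to 74.2) in the class III part and 59.2% (48.0 to 69.6) in the class II part. By that definition the class II interval overlapped that of the class III part and lay above that of the class I part. In the gene-dense windows elsewhere the median promoter share was also 63.2%, with a 10th to 90th percentile range of 51.5 to 73.0%.

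Introns held 30 peaks of the region (6.73%), against 37.1% of peaks on the rest of the chromosome. Distal intergenic sequence held 113 (25.3%), of which 82 were in the class I part, 12 in the class III part and 19 in the class II part. A transcript start lay inside 156 peaks (35.0%). By the list's own distances, 57 (12.8%) lay 10000 bases or more from the nearest annotated transcript start, and 49 of these were in the class I part. Several of the 49 lay on tRNA genes, which these distances did not take as starts. Examples are the peaks at TRR-TCG5-1 (distance 14177 bases) and TRA-TGC6-1 (24987 bases). A far peak by this measure may thus lie on a gene.

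**Figure D2:**
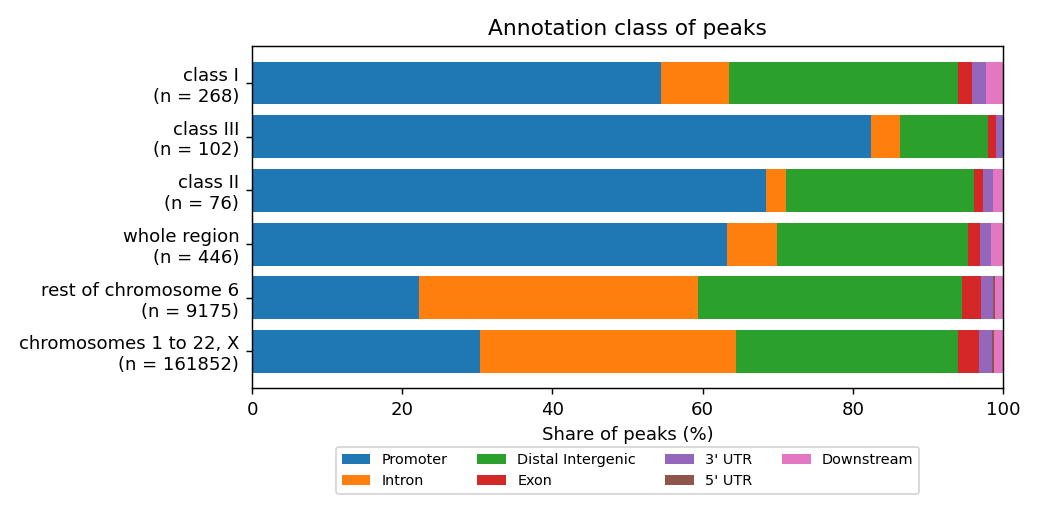
Share of peaks (%) in each annotation class for the 3 parts, the whole region, the rest of chromosome 6 and chromosomes 1 to 22 and X, with the number of peaks beside each name. Promoters take 82.4% of class III peaks and 22.3% of peaks on the rest of chromosome 6.

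Peaks of the region were also longer. The median length was 644 bases (range 130 to 2999) against 534 on the rest of chromosome 6, and 24.7% exceeded 1000 bases against 15.6%. For peaks within 1000 bases of a gene's outermost start the order was the other way. Their median was 1126.5 bases for genes of the region and 1254 for all genes. Medians differed little between parts, at 644 bases in the class I part, 658.5 in the class III part and 634.5 in the class II part. The longest peak, 2999 bases (30883838 to 30886836), lay in DDR1 (a collagen receptor gene), over a transcript start some way into that gene. The next, 2675 bases (32046050 to 32048724), lay at a start inside TNXB, the tenascin X gene. Peaks of 2269 bases marked BRD2, a chromatin reader of the BET family (32968187 to 32970455), and RGL2 (33297919 to 33300187), the latter at a start inside the gene. The fifth, 2160 bases, lay between TAP1 and PSMB9.

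**Figure D3:**
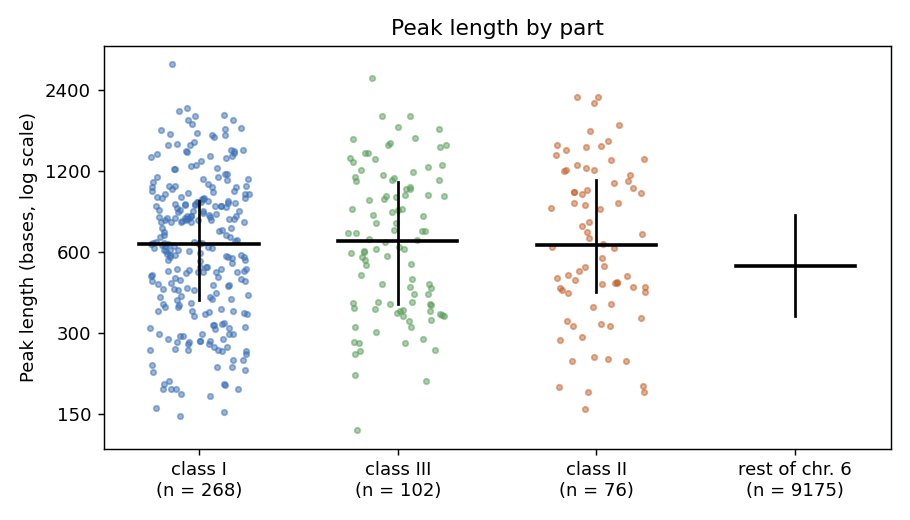
Length of each peak in bases (log scale) in the class I, class III and class II parts, with horizontal lines at the medians and vertical lines over the interquartile range. The rest of chromosome 6 is shown by its median and interquartile range only. The medians of the 3 parts, 644, 658.5 and 634.5 bases, all lie above 534.

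A gene was said to have a start peak where a peak lay within 1000 bases of its outermost start. In the region 117 of 172 protein-coding genes had one (68.0%), against 71.7% of 19516 genes over all chromosomes. The share was 42 of 73 (57.5%) in the class I part, 46 of 60 (76.7%) in the class III part and 29 of 39 (74.4%) in the class II part. In the promoter table, 156 of 270 windows of the region overlapped a peak (57.8%), against 54.7% of all. As a whole the region was thus near the background, and the differences lay between its gene groups.

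**Figure D4:**
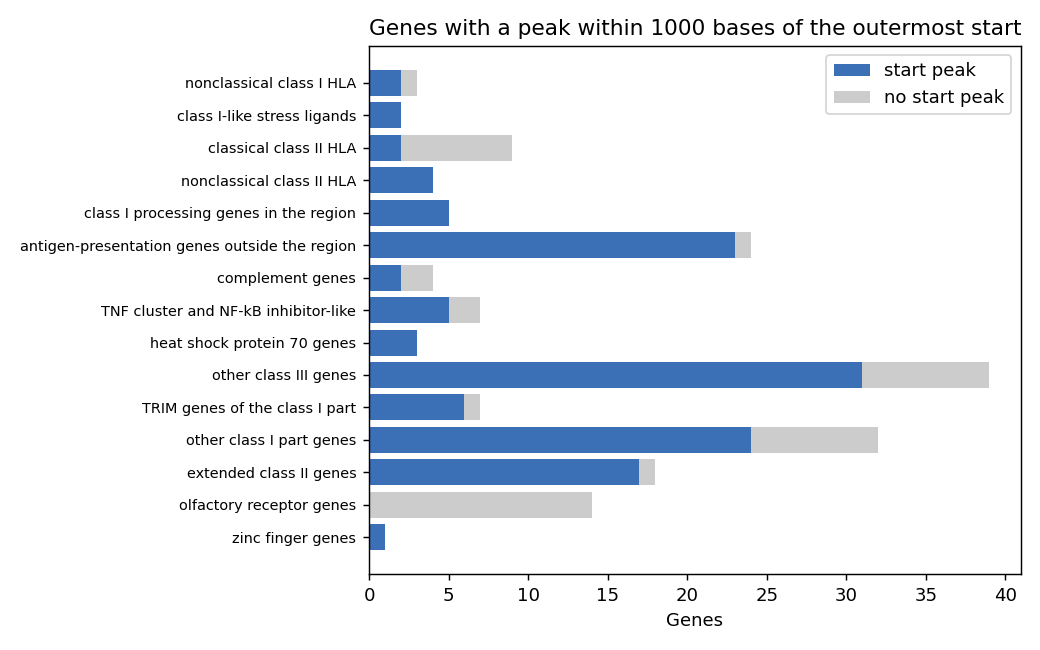
Number of genes with a start peak (blue) and without one (grey) in 15 gene lists. The olfactory receptor bar is wholly grey (0 of 14), and the classical class II bar mostly so (2 of 9).

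The classical class I genes HLA-B and HLA-C present peptides on nearly all nucleated cells. Both had a start peak, as had 71.7% of all protein-coding genes. HLA-C (31268749 to 31272092, minus strand) had one of 903 bases (31271907 to 31272809). HLA-B (31353875 to 31357179, minus strand) had only a peak of 186 bases inside the gene (31356502 to 31356687), 492 bases from its start. The start of HLA-C thus lay inside its peak and that of HLA-B outside any peak, and the HLA-B peak was the shorter. Just beyond the other end of HLA-B, peaks of 584, 357 and 858 bases followed.

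The nonclassical class I genes encode less variable molecules that are ligands for receptors of natural killer cells. HLA-E (30489509 to 30494194) had a start peak of 1344 bases and HLA-F (29723434 to 29738532) one of 1221 bases, both longer than those of HLA-B and HLA-C. HLA-G, known mainly from the placenta, had none at any of its 3 RefSeq starts, and the nearest peak lay 8488 bases from its outermost start (29834962 to 29835474). MICA and MICB encode stress-induced ligands of the receptor NKG2D. The outermost start of MICA lay inside a peak of 360 bases, and another peak of 986 bases (31403066 to 31404051) covered its RefSeq start. MICB had a peak of 808 bases, 264 bases from its start.

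Genes that feed peptides to class I molecules had start peaks throughout, 5 of 5 in the region, against 71.7% of all protein-coding genes. TAP1 and PSMB9, which run in opposite directions, shared 1 peak of 2160 bases (32852808 to 32854967). TAPBP had one of 1476 bases (33313339 to 33314814), TAP2 one of 1327 bases (32837689 to 32839015) and PSMB8 one of 1216 bases (32843793 to 32845008). Each of these was longer than the start peaks of HLA-B and HLA-C.

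The classical class II genes differed from this, with a start peak at 2 of 9 (22.2%, against 71.7% of all protein-coding genes). HLA-DRA, the invariant alpha chain of HLA-DR, had a peak of 751 bases (32439462 to 32440212), and HLA-DPB1 one of 913 bases (33075561 to 33076473). Nearest peaks of the others lay 56563 bases from the start of HLA-DRB5, 40610 from HLA-DQA2, 33935 from HLA-DQB1, 22327 from HLA-DQB2, 19711 from HLA-DRB1 and 9239 from HLA-DQA1. For HLA-DPA1 the distance was 4275 bases from the outermost start, and a peak of 383 bases (from 33073440) lay at its other RefSeq start. The genes of both partner chains of HLA-DQ thus lacked a start peak. For HLA-DR the alpha chain gene had one and the listed beta chain genes, HLA-DRB1 and HLA-DRB5, had none. Which beta chain genes these cells carry was not determined.

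The nonclassical class II genes encode HLA-DM, which loads peptides onto class II molecules, and HLA-DO, which restrains HLA-DM. All 4 had a start peak, against 71.7% of all protein-coding genes. Lengths were 894 bases at HLA-DMB (32940661 to 32941554), 710 at HLA-DMA (32952775 to 32953484), 471 at HLA-DOA (33009332 to 33009802) and 290 at HLA-DOB (32816912 to 32817201). Both DM peaks were longer than both DO peaks, and with only peaks of 539 bases (the median of the list) or longer the count was 2.

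**Figure D5:**
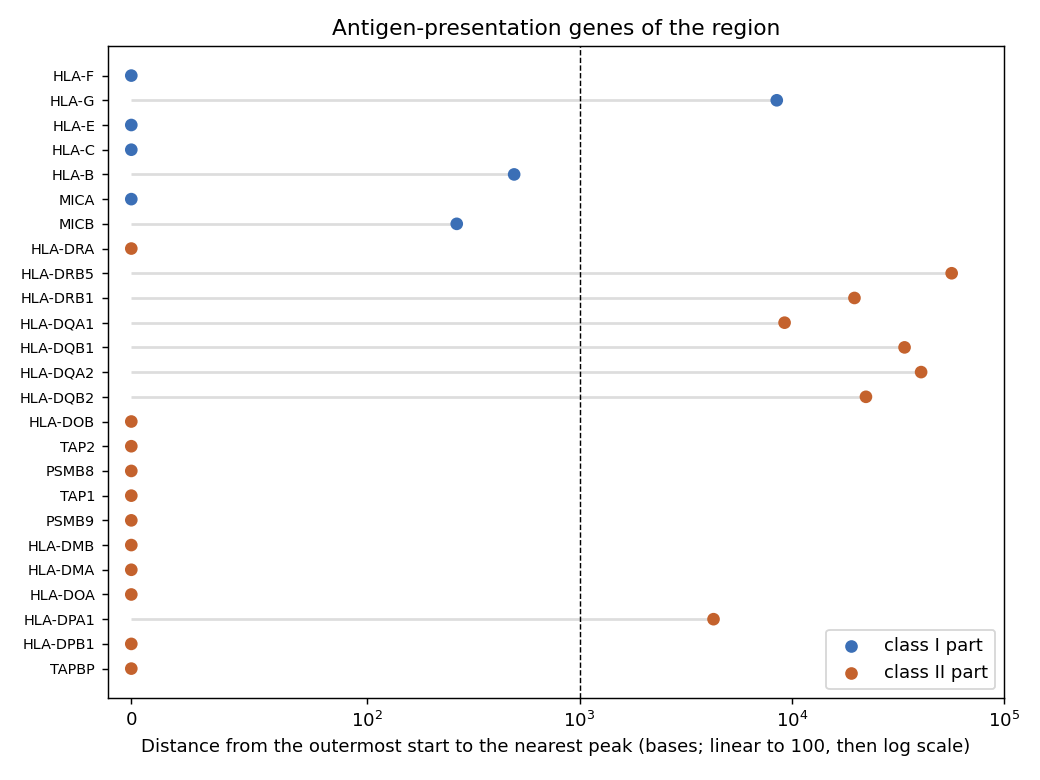
Distance in bases from the outermost start of the HLA, MIC, TAP and PSMB genes reported here to the nearest peak, linear to 100 and logarithmic beyond, in order along the chromosome and coloured by part. The dashed line marks 1000 bases. HLA-G and 7 classical class II genes lie to its right.

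Partners of these genes elsewhere in the genome mostly had start peaks, 23 of 24 (95.8%, against 71.7% of all protein-coding genes). They included B2M, the light chain of all class I molecules (1391 bases), NLRC5 (1666 bases), the X box factor gene RFX5 (985 bases) and CD74, the invariant chain of class II (965 bases). The longest were at IRF2 (3019 bases), ERAP1, a peptide-trimming enzyme (2474 bases), and NFYA, a subunit of the CCAAT-binding factor (2092 bases). The exception was CIITA. The peak nearest to its outermost start lay 3183 bases away, though 8 peaks overlapped the gene and another of its starts had a peak.

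In the class III part, the 3 HSP70 genes had start peaks. HSPA1L and HSPA1A shared one of 1503 bases and HSPA1B had one of 1188 bases. Of the complement genes, C2 (1328 bases) and CFB (975 bases) had one, and C4A and C4B had none. In the TNF cluster 5 of 7 had one (71.4%, against 71.7% of all protein-coding genes). The longest were at the lymphotoxin genes LTA (1925 bases) and LTB (1133 bases) and at NFKBIL1 (1105 bases). The LTA peak covered the outermost boundary of the gene, the list annotates it as distal intergenic, and no RefSeq promoter window of LTA or LTB overlapped a peak. With only peaks of 539 bases or longer, the count for this cluster was 3. TNF had none, with the nearest peak 2977 bases away, nor had AIF1 (4738 bases). Of 39 other class III genes 31 had one (79.5%). The longest were at PPT2 and PRRT1 (a shared peak of 1751 bases) and TNXB (1725 bases). Among the 8 without were LY6G5B, LY6G6D and LY6G6C, of the LY6 family of surface proteins, while LY6G5C of that family had one of 1145 bases. The 39 include BTNL2, also without one, whose start lies just past the bound and so in the class II part by position.

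Gene starts often stood in opposed pairs that shared a peak. In the region 36 of 116 genes with strand and a start peak shared it with another gene (31.0%, against 19.6% over all chromosomes), on 19 peaks. The region has 34.4 genes per Mb against 6.76, and sharing in gene-dense windows elsewhere was not computed. Of the 36, 34 shared it with a gene on the opposite strand, and the exception was the pair POLR1H and PPP1R11. The share was 18 of 46 (39.1%) in the class III part, 10 of 42 (23.8%) in the class I part and 8 of 28 (28.6%) in the class II part. Class III pairs included BAG6 with APOM (1594 bases), AGPAT1 with RNF5 (1578 bases), EHMT2 with C2, and NELFE with SKIC2 (1033 bases). The first of these peaks covered the outermost boundary of APOM, but no RefSeq promoter window of APOM overlapped a peak. In the extended class II part RXRB shared a peak with SLC39A7 (1202 bases), VPS52 with RPS18 (1082 bases) and WDR46 with PFDN6 (1261 bases).

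Other genes of the class I part were mixed. Of the TRIM genes, a family of ubiquitin ligases, 6 of 7 had a start peak (85.7%, against 71.7% of all protein-coding genes). The longest were at TRIM27 (1939 bases), TRIM39 (1729 bases) and TRIM26 (1649 bases), and TRIM31 had none. The others were short, 311 bases at TRIM40 and at most 256 at TRIM10 and TRIM15, which shared theirs, so the count was 3 with only peaks of 539 bases or longer. Of 32 further genes 24 had one (75%). GNL1 and PRR3 shared 1854 bases, and GABBR1, a GABA receptor gene, had 1657 bases. No RefSeq promoter window of GABBR1, TRIM10 or TRIM40 overlapped a peak, so their start peaks rest on the outermost boundary of the gene. Those without one at the outermost start included MOG, a myelin protein gene, ZFP57 and DDR1. Of the 8 RefSeq promoter windows of DDR1, 5 overlapped a peak, and ZFP57 had a peak near another annotated start. None of the 14 olfactory receptor genes had a start peak, among them OR2W1, OR2B3 and OR2J1, while the zinc finger gene ZNF311 had one of 520 bases, just under the list's median. Of 18 further listed genes of the class II part 17 had a start peak (94.4%), and RGL2 had none at its outermost start. The longest start peaks were at BRD2 (2269 bases), which lies between HLA-DMA and HLA-DOA, B3GALT4 (1688 bases) and HSD17B8 (1548 bases).

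Peak-free stretches of at least 50 kb numbered 10 and took 21.7% of the region, against 42.7% over chromosomes 1 to 22 and X. The latter share left out no sequence between the first and last peak of a chromosome. It thus includes centromeres and unassembled sequence, where no peak can be called, and the shares are not fully alike. They took 31.6% of the class II part, 20.7% of the class III part and 18.3% of the class I part. The longest, 358406 bases (29130900 to 29489305), spans 8 olfactory receptor genes and MAS1L. Over all chromosomes 277 stretches were at least as long. The second, 135834 bases (32473725 to 32609558), spans HLA-DRB5 and HLA-DRB1, and the third, 113633 bases (32255984 to 32369616), touches TSBP1.

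Further stretches fell on HLA genes. One of 85077 bases (32700782 to 32785858) spans HLA-DQA2 and HLA-DQB2, and one of 72424 bases (32628168 to 32700591) spans HLA-DQA1 and HLA-DQB1. The fifth longest, 77520 bases (31272810 to 31350329), separates HLA-C from HLA-B and holds 3 pseudogenes and 0 protein-coding genes. A stretch of 72977 bases in the class III part (31973073 to 32046049) touches C4A, C4B and CYP21A2, a steroid hydroxylase gene, besides WHR1 and TNXB. Of the 4 long stretches of the class II part, 3 span DR or DQ genes and the other lies at HLA-DPA1.

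A cluster of transfer RNA genes fills the first part of the region. Of 40 tRNA genes 36 overlapped a peak (90%), against 60.3% of the 443 tRNA genes in the table. They lay on 33 peaks of 193 to 1919 bases (median 901). TRA-AGC2-1, an alanine tRNA gene, lay in the peak of 1919 bases (28837431 to 28839349), and TRA-TGC1-1 and TRF-GAA1-1 shared one of 1709 bases. The 4 without a peak were TRF-GAA4-1, TRF-GAA5-1, TRF-GAA6-1 and TRL-AAG3-1. These genes come in near-identical copies, and the part of alignment was not tested.

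Among other non-coding genes, 50 of 73 lncRNA genes overlapped a peak (68.5%, against 60.4% of all), 3 of 13 miRNA genes (against 14.1%) and 1 of 7 snoRNA genes (SNORD48, against 5.27%). The miRNA genes were MIR877, MIR6721 and MIR219A1. Pseudogenes overlapped a peak in 11 of 110 cases (against 9.28%), and transcribed pseudogenes in 7 of 12 (58.3%, against 47.6%). Of 18 HLA pseudogenes, of both kinds, 6 overlapped a peak. HLA-K is classed as a pseudogene and the rest of the 6 as transcribed pseudogenes, for which the share over all genes is the higher. The longest of these peaks lay at HLA-K (1637 bases), HLA-H (1248 bases) and HLA-L (1059 bases), each longer than the start peaks of HLA-B and HLA-C. HLA-J (855 bases), HLA-V (442 bases) and HLA-DPB2 (458 bases) were the others.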

How the data were processed

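The only values were those of 1 deposited list, whose 17 columns per the file headers give each peak's position, length, annotation class and nearest transcript. The submitters' processing notes name Bowtie2 2.3.5.1, MACS2 2.2.6 and hg38. The sources used here do not give the calling threshold, the treatment of duplicates and of reads with several alignments, or any merging over libraries, all of which decide which peaks exist and how long they are. The planned count models need values per library and were not run.

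Genes and promoters came from RefSeq tables (GRCh38.p14). Strand came from the promoter table for 154 of the 172 genes and from transcripts in the list for 13, and 5 had none. Both ways gave the same strand for 70 of 71. Of 175 listed genes, 1 was found by synonym. Region, members and lists were chosen with earlier results of these data known. Named are HLA and processing genes (1 gene that this rule takes is not reported here), for each other list at most 3 genes with the longest start peaks and at most 3 lacking one, and genes at the longest peaks, longest stretches and extreme windows. Shared pairs, gene-dense windows, non-coding genes and the letters of the motifs were chosen after values were seen. Lookup and motif search were tested on simulated data, and 1000 of 1000 cases each were as by brute force. Python 3.11.15, numpy 2.4.6, pandas 2.3.3, statsmodels 0.14.6 and matplotlib 3.10.9 were used.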

Additional observations from a re-analysis of the deposited data

How the results depend on the processing

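Of 85 alternative values, 75 stayed within their limits and 10 moved. Counting promoters within 1000 bases of a start gave shares of 38.1% in the class I part and 65.7% in the class III part. With only peaks of 539 bases (the median of the list) or longer, start peaks remained at 2 nonclassical class II genes, 3 TNF cluster genes, 3 TRIM genes and 0 zinc finger genes. A window of 3000 bases gave 1 olfactory receptor gene. A minimum of 100 kb left 1 peak-free stretch in the class I part, 1 in the class III part and 1 in the class II part. Accepting any start in the promoter table, a choice made after seeing the data, gave 3 classical class II genes in place of 2. No paired analysis was possible because control and knockout libraries have no values of their own in the list, and for the same reason other normalizations, another count tool and leaving out a library were not run. Motifs were not searched in whole peaks, since no genome was used here. Depth is unknown, so a missing peak is no measure of closed chromatin.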
